A study of Mus musculus with 20 samples.

Results

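Genes of the liver's extracellular matrix and of the stellate cells that make much of it were described in the livers of 20 mice. The members came from a list of 38 genes, and a gene was measured when a probe set (the group of short probes that the array uses for a transcript) was annotated with that symbol alone. This held for 36 of the 38 genes, out of 18193 genes measured in all: 13 of 13 collagens, 8 of 9 other matrix proteins, 7 of 8 remodelling enzymes and inhibitors, and 8 of 8 stellate cell genes. Fbn1, which encodes fibrillin-1, and Loxl2, a collagen cross-linking enzyme whose probe sets also carried another symbol, were not analysed here.

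All mice were male C57BL/6J, 8 weeks old, and were fasted for 16 h before the livers were taken. The MSXH group of 10 mice had eaten for 4 weeks a diet with 45 kcal% fat plus 0.02% of the maple syrup extract that the labels call MSXH. The HFD group of 10 mice had eaten the diet with 45 kcal% fat and no extract for the same time, so both groups were on the high-fat diet after acclimation on a low-fat diet. Total RNA of each liver was put on 1 Affymetrix 3' array, and 2 further diets that the design names were not analysed here. The comparison asks how the livers of mice given the extract differed from those of mice on the high-fat diet alone.

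Hepatic stellate cells lie between hepatocytes and sinusoidal endothelium, where in the resting state they store vitamin A as retinyl esters. When the liver is injured they turn into contractile, myofibroblast-like cells that lay down fibrillar collagen, a step driven by TGF-beta and PDGF signals. The matrix is then shaped by enzymes that cross-link or cut it and by inhibitors of those enzymes, and diet-induced fatty liver is one setting in which this can begin.

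The deposited levels are on a log scale whose base is not stated, with array medians between 6.5216 and 6.5226. The spread between arrays was strongly compressed, with 97.6% of probe sets at an SD under 0.001, so a difference is given as a standardized difference (MSXH mean minus HFD mean, in units of the pooled within-group SD) with its 95% interval, and never as a fold of RNA. The number of arrays limits the precision. In whole-liver RNA, fewer cells of a type and less RNA per cell cannot be told apart. The 11 measured hepatocyte genes, Alb and Hnf4a among them, lay above the array median on all 20 arrays. MSXH 4 and MSXH 6 stood apart before any comparison, because they carried skeletal muscle transcripts. The level of Myh1, a fast myosin heavy chain, was 12.47 on MSXH 4 and 10.79 on MSXH 6, against at most 6.23 on the other 18 arrays, and that of Acta1, skeletal actin, was 12.11 and 10.46 against at most 6.49. Over 30 skeletal muscle genes the mean level was 7.3 on MSXH 4 and 7.0 on MSXH 6, with 6.45 to 6.48 on the other MSXH arrays and 6.44 to 6.47 on the HFD arrays. Results are therefore given with and without these 2 arrays.

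Of the matrix and stellate genes, 33 of 36 lay above the median over all probe sets on every array, where 64.4% of all genes did, and 25 of 36 lay above the median gene, while Col1a1, Lamc1 and Timp1 lay under the array median on every array. They varied more between mice than most genes, with a median SD of 0.000201 against 1.21e-05 over all 18193 genes. An SD above 0.0001 was found for 22 of the 36 members and for 11.9% of all genes. Of the further stellate and fibroblast genes, 14 of 18 measured lay above the median of every array, among them Hand2, Colec11 and Rgs5, while Lhx2, Ngfr and Cygb lay under it on every array.

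No member of the 4 classes passed the test between MSXH and HFD livers. By limma, 0 of 36 members had a Benjamini-Hochberg adjusted p under 0.05, and 0% of all genes did, and an exact rank sum test also called 0 members, with 1 member left out for tied values. At an unadjusted p under 0.05, 0 members were higher in MSXH, where 6.58% of all genes were, and 2 members, Timp1 and Reln, were lower, where 4.31% of all genes were. The mean was higher in MSXH for 20 of 36 members and for 54.7% of all genes. The median standardized difference of the members was 0.0248, against 0.0669 over all genes, and the intervals of 35 of 36 members held 0. The groups overlapped in every member, and 0.0220% of all genes showed no overlap.

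When MSXH 4 and MSXH 6 were left out, 8 members had a higher mean in MSXH and 28 a lower one, with 54.6% of all genes higher. The median standardized difference of the members was then -0.262, against 0.0693 over all genes. In that fit 0 members (0% of all genes) had an adjusted p under 0.05. Reln remained lower at an unadjusted p under 0.05 (4.02% of all genes), and 0 members were higher at it (6.27% of all genes). The split also moved with scaling: over all 20 arrays, 9 members were higher in MSXH after quantile normalization, with 7.55% of all genes higher, and 6 after array centring, with 2.75% of all genes higher. Without MSXH 4 and 6, quantile normalization turned the split round, to 21 members higher (57.4% of all genes) and a median of 0.0853, while centring left 8 higher (42% of all genes). The sign of 13 members turned after quantile normalization and that of 14 after array centring. Some quantile-normalized values, as of Fn1 below, may be nearly tied, so their signs carry little. Centring subtracts each array's median. These medians ran from 6.5216 to 6.5226, or to 6.5217 without MSXH 4 and 6. The median SD of all genes over all 20 arrays was 1.21e-05. Signs below are those of the values as deposited.

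**Figure D1:**
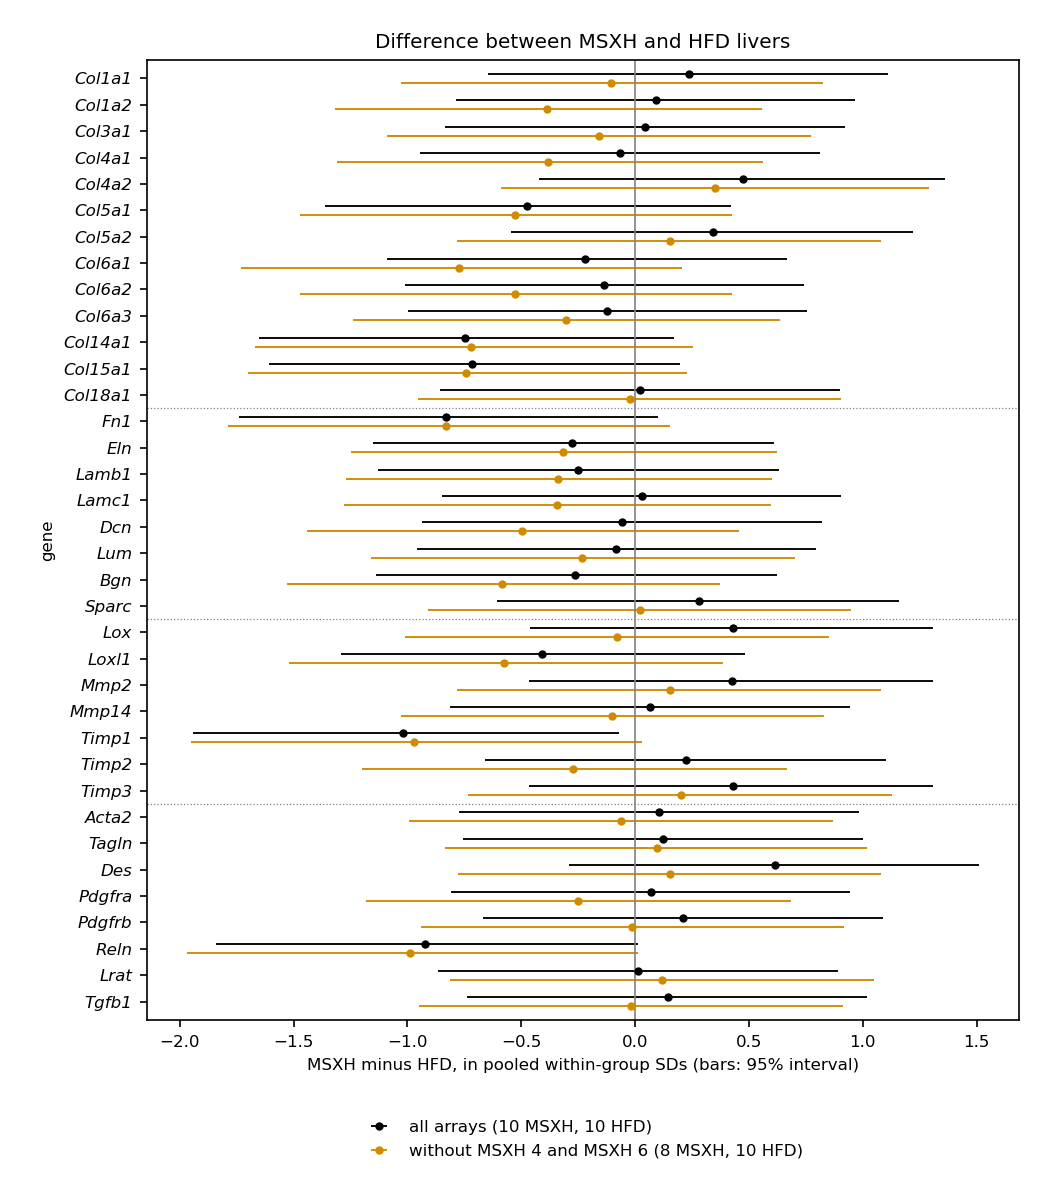
Standardized difference between MSXH and HFD livers for each of the 36 genes, with its 95% interval, over all arrays (black) and without MSXH 4 and MSXH 6 (orange). The black intervals hold 0 for 35 of 36 genes, and 28 of the 36 orange points lie below 0.

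Type I and type III collagen are the fibrils of scar tissue, type IV is the sheet of basement membranes, type V seeds fibrils, type VI forms beaded microfibrils, type XIV sits on fibril surfaces, and types XV and XVIII lie at basement membranes. Of the 13 collagen genes, 6 had a higher and 7 a lower mean in MSXH, and 0 passed the test (smallest adjusted limma p 0.559). The median standardized difference of the class was -0.0672 over all arrays and -0.382 without MSXH 4 and 6, where 2 were higher and 11 lower.

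The sequences upstream of 3 collagen genes whose levels ran together between mice are shown as context for that pattern. They are the 150 bases before the RefSeq start in GRCm38.p6, on the gene's own strand: Col1a2 at chr6:4505468-4505617 on the plus strand, Col3a1 at chr1:45311388-45311537 on the plus strand, and Col6a1 at chr10:76726045-76726194 on the minus strand. Capitals mark 4 searched motifs, taken on both strands: the CCAAT box (CCAAT), the GC box (GGGCGG), the TATA box (TATAAA) and the AP-1 site (TGACTCA).
Col1a2: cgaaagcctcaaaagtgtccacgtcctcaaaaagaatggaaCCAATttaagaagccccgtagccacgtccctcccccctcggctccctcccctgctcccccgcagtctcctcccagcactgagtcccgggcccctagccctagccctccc
Col3a1: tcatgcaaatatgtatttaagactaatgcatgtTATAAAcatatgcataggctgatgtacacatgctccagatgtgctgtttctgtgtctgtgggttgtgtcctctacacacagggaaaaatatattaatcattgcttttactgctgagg
Col6a1: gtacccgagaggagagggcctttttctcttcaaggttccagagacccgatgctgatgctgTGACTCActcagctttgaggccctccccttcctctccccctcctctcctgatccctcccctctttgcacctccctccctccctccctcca
In these windows Col1a2 held a CCAAT box 109 bases before the start, Col3a1 a TATA box at 117 bases and Col6a1 an AP-1 site at 90 bases, with no overlap between motifs. Among all 32851 RefSeq windows of this length, 24.5% held a CCAAT box, 28.6% a GC box, 7.57% a TATA box and 2.84% an AP-1 site. The 3 windows share none of these motifs. Windows were found for 23 of the 36 members, of which 5 held a CCAAT box, 14 a GC box, 1 a TATA box and 1 an AP-1 site. A member was counted when any of its windows held the motif, while the shares above are per window. The counts and shares are therefore not directly comparable.

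Col3a1, the fibrillar type III chain (chr1:45311538-45349706, GRCm38.p6), had the largest spread of the members. Its levels ran from 7.3723 through a median of 7.3882 to 7.4112 in MSXH and from 7.3722 through 7.3877 to 7.4122 in HFD. The groups covered nearly the same range, with HFD 5 highest and HFD 9 lowest, and the standardized difference was 0.0436 (-0.834 to 0.920), with an adjusted limma p of 0.984. Col1a2, the second chain of type I collagen (chr6:4505618-4541543), ran from 7.9986 through 8.0053 to 8.0218 in MSXH and from 8.0013 through 8.0075 to 8.0123 in HFD. MSXH 4 was its highest array and MSXH 3 its lowest, so the MSXH range enclosed the HFD range. Its standardized difference was 0.0922 (-0.786 to 0.968, adjusted limma p 0.963), and -0.388 (-1.32 to 0.557) without MSXH 4 and 6.

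The collagens of smallest p all had lower means in MSXH. Col14a1, whose product coats collagen fibrils (chr15:55307644-55520803), ran from 8.12376 through 8.12485 to 8.12514 in MSXH and from 8.12412 through 8.12528 to 8.12560 in HFD. The highest 2 arrays were HFD 3 and HFD 5, and when each MSXH mouse was set against each HFD mouse, MSXH was higher in 25 of 100 pairs. The standardized difference was -0.748 (-1.65 to 0.171), with an unadjusted limma p of 0.105 and an adjusted one of 0.559, and it was -0.719 without MSXH 4 and 6.

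Col15a1, a basement membrane zone collagen, ran from 6.7991991 through 6.7992117 to 6.7992222 in MSXH and from 6.7992032 through 6.7992148 to 6.7992321 in HFD. The groups overlapped over most of their range, with a standardized difference of -0.717 (-1.61 to 0.199, adjusted limma p 0.585). Col5a1 ran from 7.0284590 through 7.0284708 to 7.0284790 in MSXH and from 7.0284552 through 7.0284732 to 7.0284845 in HFD. Its highest and lowest arrays, HFD 3 and HFD 9, were both HFD arrays, and the standardized difference was -0.475 (-1.36 to 0.422, adjusted limma p 0.733). The other 8 collagens had standardized differences between -0.218 (Col6a1) and 0.474 (Col4a2). Col18a1, whose collagen XVIII releases the fragment endostatin, stood at 0.0216 on the probe set used. Its second probe set, also above the median of every array, ran from 10.549044 through 10.549094 to 10.549145 in MSXH and from 10.548975 through 10.549055 to 10.549100 in HFD. The groups overlapped, with MSXH higher in 79 of 100 pairs. That probe set stood at 1.18 (0.207 to 2.12, unadjusted limma p 0.0150, adjusted over all probe sets 0.352), and the 2 correlated at 0.618 between mice. With the mean of its probe sets Col18a1 stood at 1.07 (unadjusted limma p 0.0259, adjusted 0.394).

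The other matrix proteins measured were the adhesive glycoprotein fibronectin (Fn1), elastin (Eln), the laminin chains Lamb1 and Lamc1, the small leucine-rich proteoglycans decorin, lumican and biglycan (Dcn, Lum, Bgn), and Sparc, a collagen-binding matricellular protein. Of the 8 measured, 2 had a higher and 6 a lower mean in MSXH, with a median standardized difference of -0.167, and 0 passed the test (smallest adjusted limma p 0.516). Without MSXH 4 and 6, 1 was higher and 7 were lower, and the median was -0.342.

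Fn1, which hepatocytes secrete as plasma fibronectin (chr1:71585473-71653280), ran from 12.5801748 through 12.5802270 to 12.5802435 in MSXH and from 12.5802092 through 12.5802310 to 12.5802479 in HFD. MSXH 7 was lowest, and the MSXH arrays reached further down than the HFD arrays. The standardized difference was -0.829 (-1.74 to 0.0985), with an unadjusted limma p of 0.0748 and an adjusted one of 0.516. After quantile normalization it was 0.447, and Col18a1, Col4a2 and Lamb1 each stood at -0.447 there. Nearly tied values can give this shared size, so the sign of Fn1 in that setting is not read. The second Fn1 probe set stood at 0.00946, and its correlation with the first between mice was 0.137, so the 2 probe sets did not order the mice alike.

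Sparc ran from 8.80804 through 8.80885 to 8.80992 in MSXH and from 8.80796 through 8.80876 to 8.80938 in HFD. MSXH 4 was highest, and the standardized difference of 0.280 (-0.605 to 1.16, adjusted limma p 0.853) was 0.0201 without MSXH 4 and 6. Eln ran from 6.7676851 through 6.7676879 to 6.7676986 in MSXH and from 6.7676842 through 6.7676902 to 6.7676963 in HFD. The elastin ranges nearly coincided, with a standardized difference of -0.277 (-1.15 to 0.608, adjusted limma p 0.864). The other 5 lay between -0.262 (Bgn) and 0.0281 (Lamc1), and without MSXH 4 and 6 Bgn lay at -0.586 and Dcn at -0.497.

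In the class of remodelling enzymes and inhibitors, Lox and Loxl1 cross-link collagen and elastin, Mmp2 is a gelatinase, Mmp14 is a membrane-bound protease that activates the Mmp2 proenzyme, and Timp1, Timp2 and Timp3 inhibit such proteases. Of the 7 measured, 5 had a higher and 2 a lower mean in MSXH, with a median standardized difference of 0.223, and 0 passed the test. With MSXH 4 and 6 left out, 2 were higher and 5 lower, and the median was -0.101.

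Timp1 (chrX:20870166-20874737), a protease inhibitor that is often raised in fibrotic liver, had the smallest p of the 36 members. It ran from 6.2818754 through 6.2818879 to 6.2819006 in MSXH and from 6.2818792 through 6.2818970 to 6.2819126 in HFD. HFD 2 and HFD 7 were its highest arrays and MSXH 3 its lowest, and MSXH was the higher one in 20 of 100 pairs. The standardized difference was -1.02 (-1.94 to -0.0711), with an unadjusted limma p of 0.0322 and an adjusted one of 0.409. Timp1 has 1 probe set, whose level lay under the median of every array, so its expression in these livers is uncertain. Without MSXH 4 and 6 the difference was -0.973 (-1.95 to 0.0286, unadjusted limma p 0.0527), and with centring added it was -0.293 (p 0.539). Over all arrays it was -0.799 after quantile normalization (unadjusted limma p 0.0846) and -0.699 after array centring (p 0.128).

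Lox, whose enzyme starts collagen cross-linking, ran from 6.880712 through 6.880767 to 6.881009 in MSXH and from 6.880728 through 6.880767 to 6.880829 in HFD. MSXH 4 alone lay above the HFD range. The standardized difference of 0.430 (-0.463 to 1.31, adjusted limma p 0.760) became -0.0792 without MSXH 4 and 6. Timp3 ran from 8.13137 through 8.13255 to 8.13483 in MSXH and from 8.13162 through 8.13229 to 8.13267 in HFD, with MSXH 7 and MSXH 4 highest and MSXH 9 lowest. The MSXH mice thus spread further both ways, around a standardized difference of 0.428 (-0.465 to 1.31, adjusted limma p 0.760). The other 4 lay between -0.410 (Loxl1) and 0.425 (Mmp2), and Timp2, at 0.223 over all arrays, stood at -0.271 without MSXH 4 and 6. Mmp14 stood at 0.0657 on the probe set used. Another of its probe sets, also above every array median, stood at -1.1 (-2.04 to -0.145, unadjusted limma p 0.0210, adjusted over all probe sets 0.375), and the 2 correlated at 0.204.

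Of the stellate cell genes, Acta2 (smooth muscle actin) and Tagln (transgelin) mark the contractile state, Des encodes the filament protein desmin, Pdgfra and Pdgfrb are PDGF receptors, Reln encodes the secreted glycoprotein reelin, Lrat makes retinyl esters, and Tgfb1 is the ligand that drives collagen synthesis. Of the 8, 7 had a higher mean in MSXH and 1, Reln, a lower one, with a median standardized difference of 0.115. Without MSXH 4 and 6, 3 were higher and 5 lower, and the median was -0.0152. The test was passed by 0 of the 8 with either set of arrays (smallest adjusted limma p 0.455 with all arrays).

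Reln (chr5:21884454-22344705), a stellate cell gene in liver, ran from 9.783404 through 9.783696 to 9.784060 in MSXH and from 9.783550 through 9.783853 to 9.784145 in HFD. HFD 5 and HFD 7 were highest and MSXH 3 lowest, and MSXH was the higher one in 24 of 100 pairs. The standardized difference was -0.924 (-1.84 to 0.0140), with an unadjusted limma p of 0.0490 and an adjusted one of 0.455. Without MSXH 4 and 6 it was -0.990 (unadjusted limma p 0.0480). After array centring it was -1.24 (unadjusted limma p 0.0111), in a setting where the median over all genes was -0.661. The unadjusted p lay above 0.05 after quantile normalization (-0.857, p 0.0611), by the exact rank sum test (p 0.0524) and with the mean of the probe sets (p 0.0509). With quantile normalization and without MSXH 4 and 6, the difference was -0.595 (unadjusted limma p 0.215). A second Reln probe set, under the median of every array, stood at 0.491 and correlated with the first at -0.241 between mice. The 150 bases before the RefSeq start, at chr5:22344706-22344855 on the minus strand of GRCm38.p6, are shown because Reln is one of the 2 members at an unadjusted p under 0.05, with GC boxes (GGGCGG, searched on both strands) in capitals.
Reln: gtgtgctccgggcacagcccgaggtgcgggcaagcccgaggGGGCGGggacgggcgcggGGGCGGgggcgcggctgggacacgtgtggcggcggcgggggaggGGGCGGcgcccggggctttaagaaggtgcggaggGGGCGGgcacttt
The window held 4 GC boxes, which began 109, 91, 47 and 13 bases before the start, and none of the other 3 motifs.

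Des was the 1 member whose 2 highest arrays were MSXH 4 and MSXH 6, a pattern seen in 1.63% of all genes and in 25 of the 30 skeletal muscle genes. Its level was 7.1344 on MSXH 4 and 7.1221 on MSXH 6, against at most 7.1162 on the other 18 arrays. It ran from 7.1142 through 7.1155 to 7.1344 in MSXH and from 7.1130 through 7.1151 to 7.1162 in HFD. The standardized difference of 0.615 (-0.292 to 1.51, adjusted limma p 0.635) was 0.155 (-0.778 to 1.08) without these 2 arrays. Desmin is also a protein of muscle fibres, and the genes nearest to Des across all arrays included the muscle genes Pgam2 (r 0.984), Atp2a1 and Tcap.

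Acta2 ran from 7.51497 through 7.51621 to 7.52258 in MSXH and from 7.51551 through 7.51697 to 7.51841 in HFD. MSXH 7 and MSXH 4 lay above every HFD mouse while the MSXH median lay below the HFD median, and the standardized difference was 0.106 (-0.773 to 0.982, adjusted limma p 0.955). Pdgfrb ran from 6.876258 through 6.876711 to 6.877248 in MSXH and from 6.876411 through 6.876674 to 6.877161 in HFD. Its standardized difference was 0.212 (-0.670 to 1.09, adjusted limma p 0.896), and -0.0120 without MSXH 4 and 6. The other 4 lay between 0.0128 (Lrat) and 0.143 (Tgfb1).

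**Figure D2:**
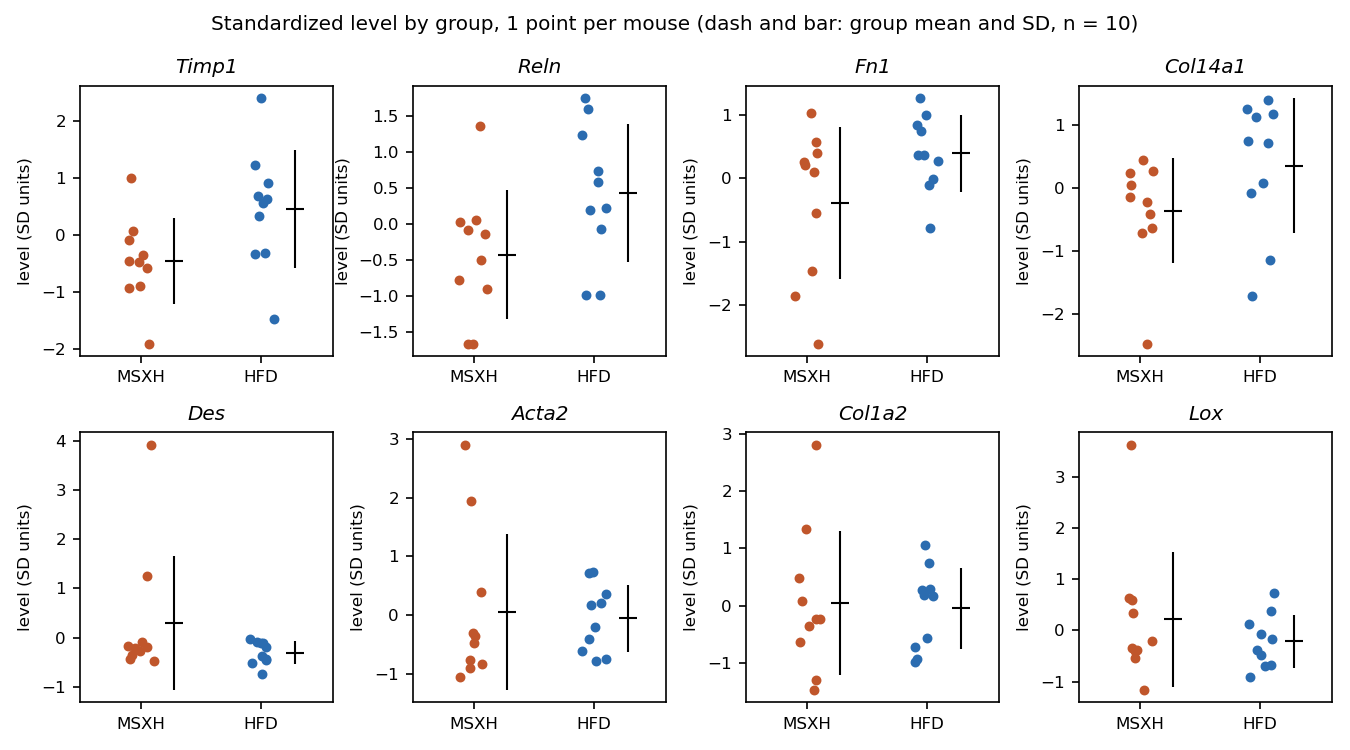
Standardized level (SDs from the gene's own mean over 20 arrays) of 8 genes in MSXH and HFD livers, 1 point per mouse, with the group mean and SD beside it. Timp1, Reln, Fn1 and Col14a1 overlap between groups with lower means in MSXH, and single MSXH mice stand out in Des, Acta2, Col1a2 and Lox.

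Several members were covered by more than 1 probe set, which allows a check within the array. The 36 members had 82 probe sets, and 29 members had several. All probe sets of a member pointed higher in MSXH for 8 of these 29, all lower for 6, and both ways for 15. The 46 probe sets not used above correlated with the used one at a median r of 0.434 between mice, with 15 at 0.7 or more and 7 below 0. At an unadjusted limma p under 0.05, 2 of the 82 were higher in MSXH and 4 lower, against 6.03% and 4.69% of all 34945 probe sets. The higher ones were a Col18a1 probe set (1.18) and a Timp2 one under every array median (1.2). The lower ones were those used for Timp1 and Reln, an Mmp14 one (-1.1) and a Col5a1 one under every array median (-0.961).

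Between individual mice the matrix genes ran together, whichever group the mouse was in. Of the 630 pairs of members, 101 (16%) had a Pearson r of 0.7 or more over the 20 mice, against 0.338% of all pairs of genes. Without MSXH 4 and 6 it was 73 pairs (11.6%), against 0.440% of all pairs. Taken as deviations from the group means, 105 pairs reached 0.7. These genes had larger spreads than most, and all points of a pair share a liver sample and an array. The shares change with scaling, since after array centring 87.2% of all pairs of genes reached 0.7 and 28.1% of the member pairs did, and after quantile normalization 69.5% and 26.7%.

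**Figure D3:**
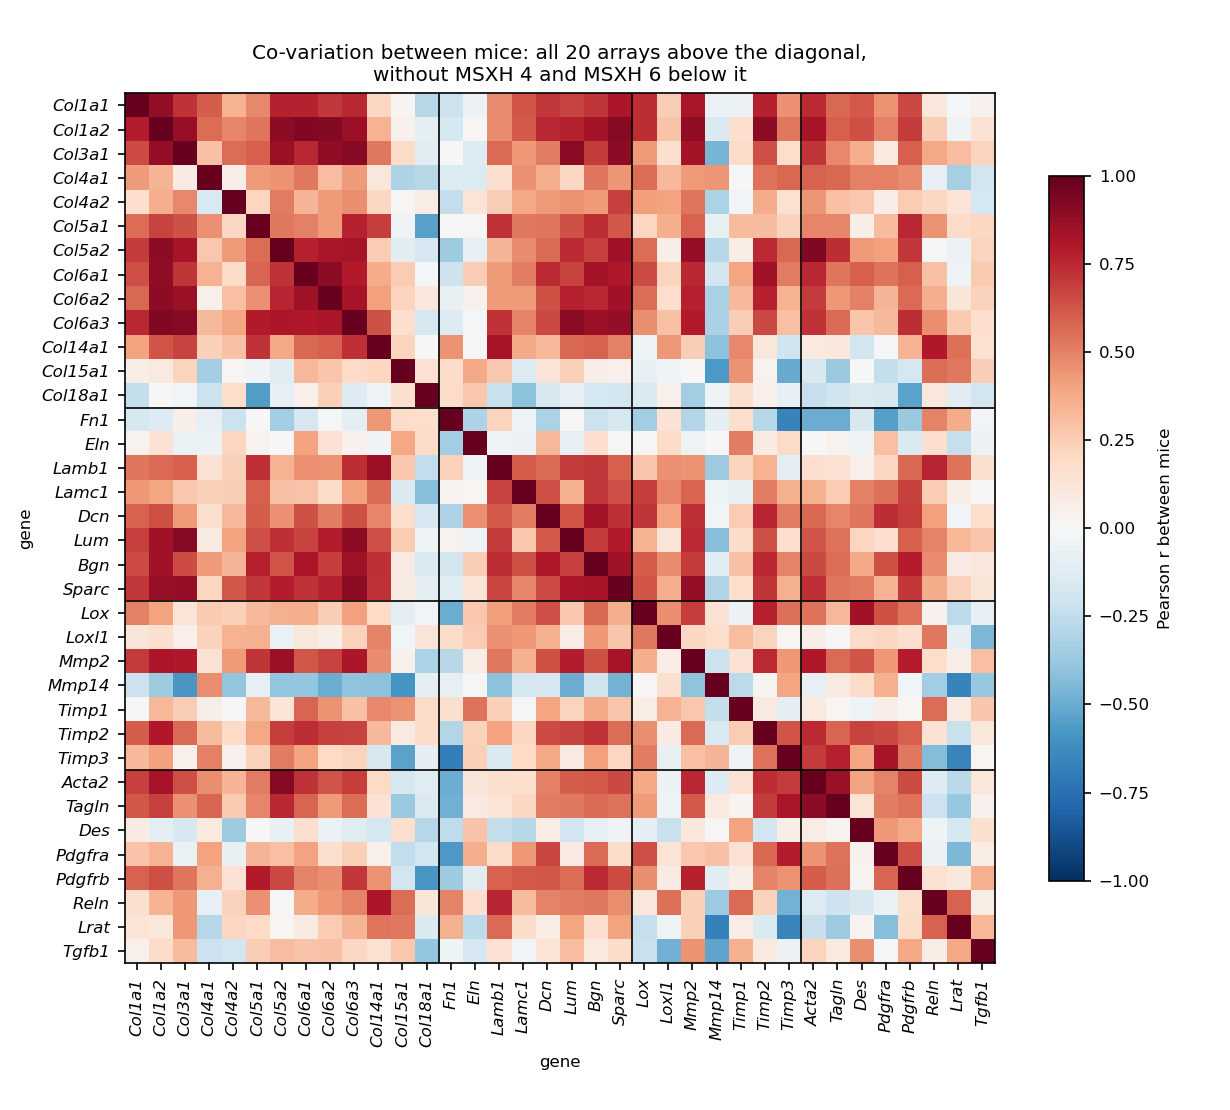
Pearson r between mice for every pair of the 36 genes, with all 20 arrays above the diagonal and without MSXH 4 and MSXH 6 below it. Red blocks join the fibrillar and type VI collagens with Dcn, Lum, Bgn, Sparc, Mmp2 and Acta2, and paler rows are those of Fn1, Eln, Col18a1, Mmp14 and Tgfb1.

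Col1a2, Col3a1, Col5a2 and the type VI collagens formed the core of this pattern. Among the 78 pairs of collagens, 22 (28.2%) reached 0.7 over all arrays and 20 (25.6%) without MSXH 4 and 6. The same 2 counts were 7 and 5 for the 28 pairs of other matrix genes and 2 and 0 for the 21 pairs of remodelling genes. For the 28 pairs of stellate genes they were 1 and 1. Col1a1, under the median of every array, reached 0.7 with 13 members over all arrays but with 3 without MSXH 4 and 6. For Dcn these numbers were 9 and 1. The named pairs were picked for their size or role among the 630 computed, so their permutation p-values, which are unadjusted, describe the pairs only. Col1a2 and Col3a1, both fibrillar, correlated at r 0.868 and rho 0.832 (permutation p 1e-05, the smallest that 100000 permutations can give, and 2e-05). Within the groups r was 0.921 in MSXH and 0.949 in HFD, and 0.857 with the 2 most extreme mice on Col1a2 left out. Col1a2 and Col6a1 correlated at r 0.922 and rho 0.893 (permutation p 1e-05 each), at 0.955 in MSXH and 0.874 in HFD, and at 0.892 with the 2 most extreme mice left out. Col3a1 and lumican, a regulator of fibril width, correlated at r 0.901 and rho 0.889 (permutation p 1e-05 each), at 0.808 in MSXH and 0.961 in HFD, and at 0.889 with the 2 extreme mice left out. Without MSXH 4 and 6, r was 0.887 for Col1a2 with Col6a1 and 0.911 for Col3a1 with lumican.

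The stellate genes did not share 1 pattern. Acta2 ran with Col5a2 at r 0.924 and rho 0.859 (permutation p 1e-05 each), at 0.952 in MSXH and 0.875 in HFD, and at 0.809 with the 2 extreme mice left out. It ran with Tagln, the other contractile gene, at r 0.865, but with Reln at -0.128 and with Lrat at -0.272. Reln ran instead with Col14a1 at r 0.800 and rho 0.889 (permutation p 3e-05 and 1e-05), at 0.625 in MSXH and 0.871 in HFD, and at 0.760 with the 2 extreme mice left out. Its r with the laminin chain Lamb1 was 0.758 and with Lrat 0.586. Timp3 ran with Pdgfra at r 0.823 and against Lrat at -0.662. Acta2 and Reln thus each ran with collagens, but not with each other. Without MSXH 4 and 6, r was 0.909 for Acta2 with Col5a2 and 0.808 for Reln with Col14a1.

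Some other pairs did not run together, or did so on part of the arrays only. Col4a1 and Col4a2, the chains of type IV collagen, are divergent neighbours on chromosome 8 with overlapping starts, and their r was 0.0688 (rho 0.125, permutation p 0.772 and 0.600). The Col4a2 probe set had an SD of 8.29e-06. Lox and Des correlated at r 0.842 over all arrays but at -0.0910 without MSXH 4 and 6, with a rho of 0.301, so this relation rests on those arrays. Pdgfra and Pdgfrb correlated at 0.899 in MSXH and at -0.289 in HFD, a difference that was not tested.

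**Figure D4:**
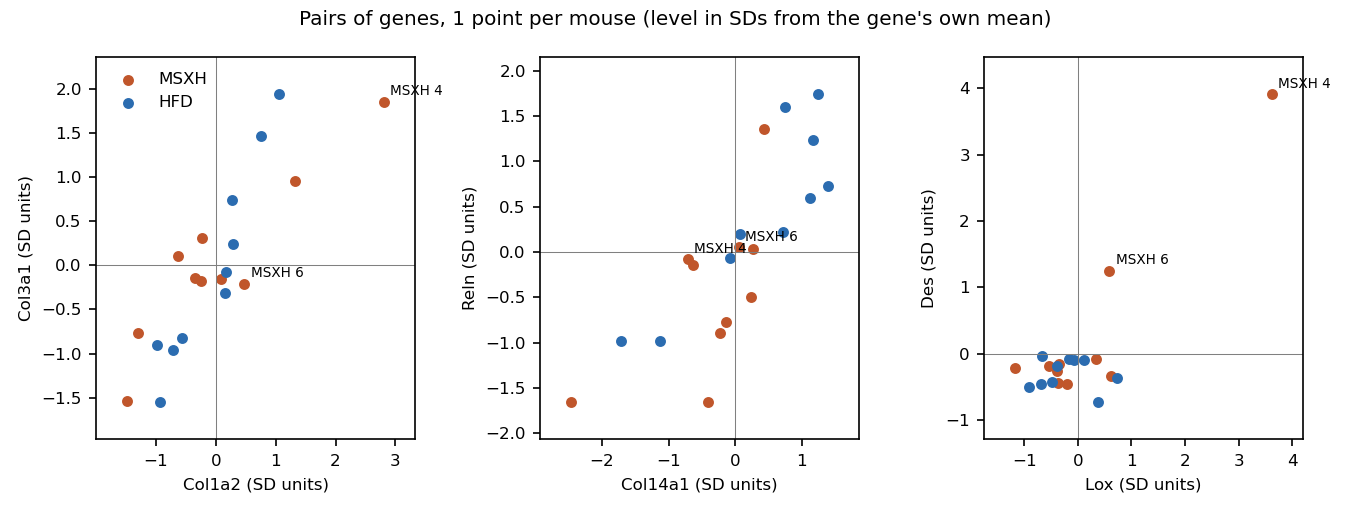
Standardized levels of 3 pairs of genes, 1 point per mouse, in MSXH and HFD livers. Col1a2 with Col3a1 and Col14a1 with Reln follow a line in both groups, while for Lox with Des, MSXH 4 and MSXH 6 stand apart from the other mice.

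Over all 18193 genes, the nearest neighbours of many matrix members included other members. Col6a2 had 8 members among its 20 nearest genes, and Col3a1, Col5a2, Col6a3 and Sparc had 7 each. Without MSXH 4 and 6, Col6a2 had 7, Col3a1 6, and Col5a2, Col6a3 and Sparc 5 each. Over all 20 arrays the nearest gene to Col1a2 was Ccdc80 (r 0.941), to Acta2 Dpt (0.935), to Lum Rbms3 (0.935), to Pdgfrb Abcc9 (0.841) and to Reln Ecm1 (0.836). Most of these changed without MSXH 4 and 6. The nearest was then Col6a3 (0.923) for Col1a2, Myl9 (0.953) for Acta2, Atp6ap2 (0.895) for Pdgfrb and Itm2a (0.895) for Reln, while Lum kept Rbms3 (0.933). Fn1, by contrast, had 0 members among its 20 nearest genes and was nearest to Elovl3 (0.904), a fatty acid elongase, or to Cyp7b1 (0.920) without MSXH 4 and 6. Lrat was nearest to Mlxipl (0.947), a carbohydrate-response factor of hepatocytes, and also had 0 members among its 20 nearest. Its r with the list of hepatocyte genes was nevertheless -0.723, and -0.728 without MSXH 4 and 6.

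The mice themselves could be placed along this shared axis. MSXH 4 held the highest level of 14 of the 36 members, and of 5.47% of all genes, and its mean standardized level over the members was 1.29. MSXH 7 followed with the highest level of 6 members (8.02% of all genes) and a mean of 0.64, and HFD 5 with 5 members (5.58% of all genes) and 0.60. MSXH 7 also held the lowest level of 7.96% of all genes. At the other end, MSXH 3 held the lowest level of 10 members (mean -0.98), HFD 9 of 9 (mean -0.70) and MSXH 5 of 5 (mean -0.75). They held the lowest level of 6.15%, 6.19% and 4.07% of all genes, and MSXH 3 the highest of 8.92%. Both groups thus had mice above and below 0. The means over members ran from -0.98 to 1.29 in MSXH, or to 0.64 without MSXH 4 and 6, and from -0.70 to 0.60 in HFD.

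**Figure D5:**
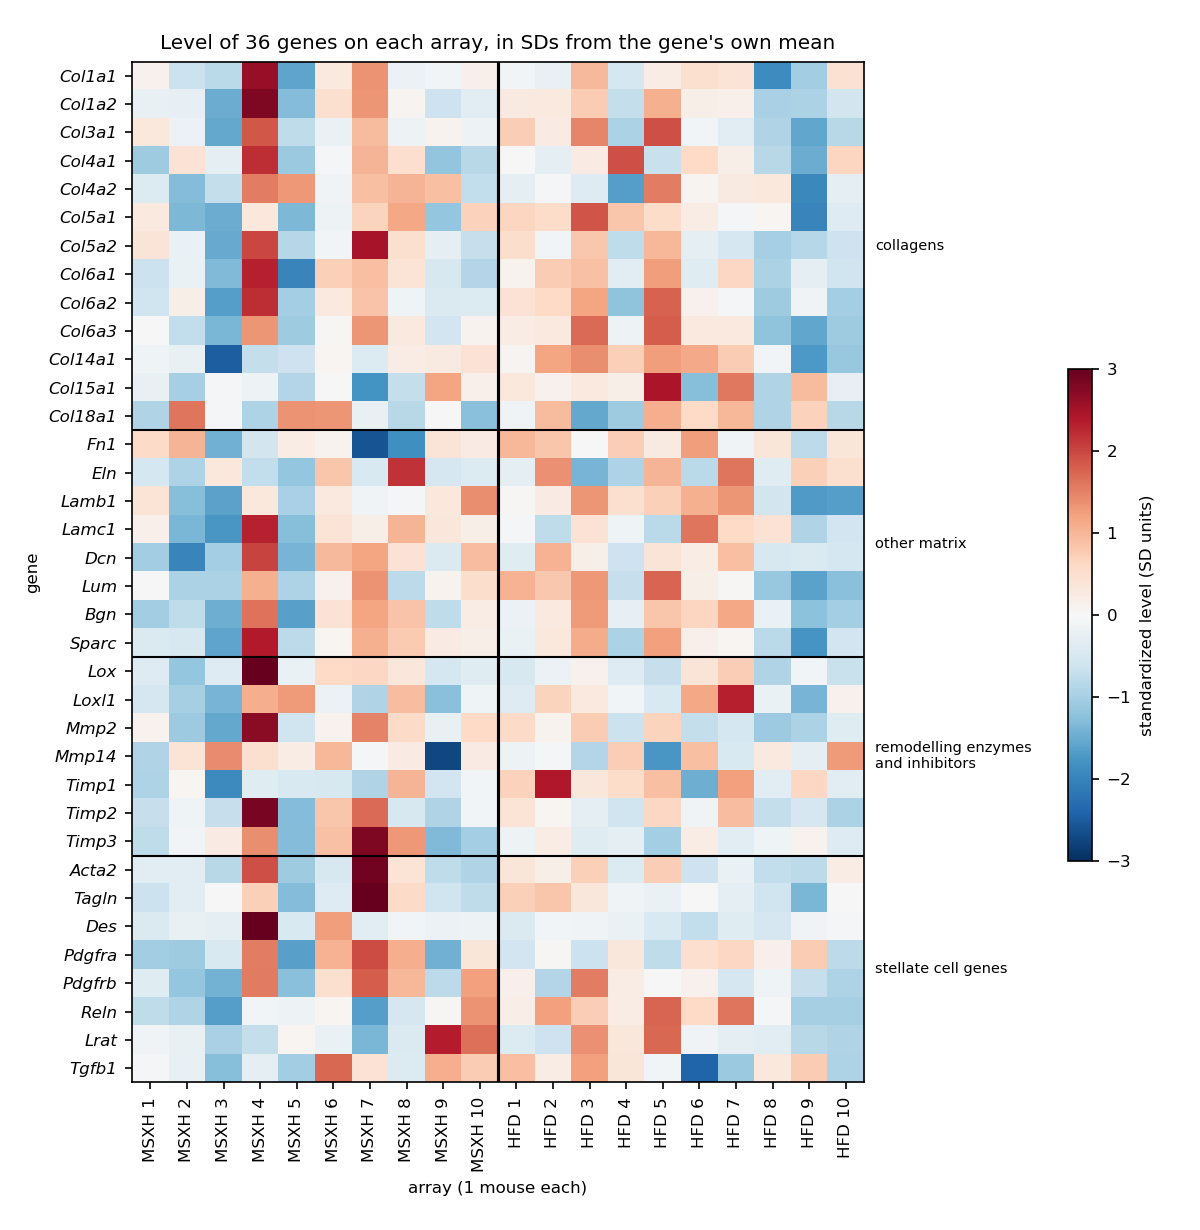
Level of the 36 genes (rows, by class) on each of the 20 arrays (MSXH left, HFD right), in SDs from the gene's own mean, with colours that stop at 3 SDs either way. MSXH 4 is red across most collagens and remodelling genes, and MSXH 3, MSXH 5 and HFD 9 are blue.

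Markers of other cell types were read on the same arrays. The mean standardized level of 5 mesothelial genes was highest on MSXH 4, at 2.38, and 0.718 on MSXH 6, with -0.73 to 0.27 on the MSXH arrays other than MSXH 4 and 6 and -0.66 to 0.53 on the HFD arrays. That of 6 adipocyte genes was 1.54 on MSXH 4 and 1.57 on MSXH 6, with -0.84 to 0.19 on the other MSXH arrays and -0.42 to 0.41 on the HFD arrays. The 8 smooth muscle genes stood at 1.65 on MSXH 4 and -0.134 on MSXH 6, with -0.48 to 0.64 on the MSXH arrays other than MSXH 4 and 6 and -0.56 to 0.75 on the HFD arrays. Each of these 3 lists was thus high on MSXH 4, but not each on MSXH 6. The 5 cholangiocyte genes stood at 1.03 on MSXH 4 and 0.648 on MSXH 6, with -0.65 to 0.29 on the other MSXH arrays and -0.52 to 0.79 on the HFD arrays. The 12 macrophage genes were lowest on the same arrays, at -1.168 and -1.169, with -0.87 to 1.59 on the other MSXH arrays and -0.86 to 1.04 on the HFD arrays. The part of these cells in the levels of MSXH 4 and MSXH 6 was not tested. On MSXH 7, next in matrix level, the smooth muscle list stood at 0.639, the highest MSXH value after that of MSXH 4, while the skeletal muscle list stood at -0.289, the adipocyte list at 0.186 and the mesothelial list at -0.247. Between mice, Acta2 ran with the smooth muscle list at r 0.681, and at 0.568 without MSXH 4 and 6. Its r with the further stellate and fibroblast list was 0.308, and 0.250 without them. For Col1a2 these were 0.786 and 0.621 with smooth muscle, and 0.589 and 0.616 with the stellate list. For Reln they were 0.179 and 0.270, and 0.795 and 0.818. The part of smooth muscle cells in the Acta2 levels was not tested.

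The wider pathway gave 0 calls by adjusted limma p in every list. Its counts at an unadjusted p under 0.05 are read beside the shares of all genes, 6.58% higher and 4.31% lower in MSXH. Without MSXH 4 and 6 these shares were 6.27% and 4.02%. Among 32 further matrix genes, 1 was higher and 2 were lower in MSXH at an unadjusted p under 0.05, with a median standardized difference of 0.0830. Without MSXH 4 and 6, 1 was higher and 4 were lower, with a median of -0.194. Postn, which encodes the matricellular protein periostin, had the smallest p of the further matrix genes over all arrays. It ran from 7.510976 through 7.511227 to 7.511467 in MSXH and from 7.511148 through 7.511488 to 7.511843 in HFD. The difference was -1.39 (-2.36 to -0.386, adjusted limma p 0.271), and it was -1.53 without MSXH 4 and 6. Among 19 collagen processing genes, 2 were higher and 0 lower at that threshold, led by Plod1, a collagen lysyl hydroxylase, at 1.06 (0.110 to 1.99, adjusted limma p 0.396). Without MSXH 4 and 6, 1 collagen processing gene was higher and 2 were lower.

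Among 18 further stellate and fibroblast genes, 0 were higher and 1 was lower at an unadjusted p under 0.05. This was Ecm1, a matrix glycoprotein, at -1.03 (-1.95 to -0.0782, adjusted limma p 0.408), which is also the gene nearest to Reln between mice. Of 18 TGF-beta signalling genes, 2 were higher and 0 lower. The smallest p was that of Itgb5, an integrin subunit that can take part in activating latent TGF-beta, at 1.54 (0.519 to 2.54, adjusted limma p 0.243), while the ligand Tgfb1 itself stood at 0.143. Of the 4 PDGF ligands, 1 was higher, Pdgfa at 1.2 (0.224 to 2.14, adjusted limma p 0.333). The PDGF receptor genes Pdgfra and Pdgfrb stood at 0.0699 and 0.212. The counts of the further stellate, TGF-beta and PDGF lists were the same without MSXH 4 and 6.

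In the marker lists of other cells, which had 0 calls by adjusted p, the gene of smallest unadjusted limma p had a standardized difference of 1.58 for hepatocytes (Cebpa), 1.44 for macrophages (Itgam), 1.18 for lymphocytes (Cd3d), 1.01 for skeletal muscle (Ldb3), 0.902 for smooth muscle (Myh11) and 0.607 for mesothelium (Wt1). It was -1.14 for endothelium (Pecam1), -1.06 for cholangiocytes (Epcam) and -1.17 for adipocytes (Lep). The median of the macrophage list was 0.110 over all arrays and 0.522 without MSXH 4 and 6, where 12 of 12 genes had a higher mean in MSXH, as 54.6% of all genes did. That of the endothelial list was -0.232 and -0.0702.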

How the data were processed

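Liver RNA of 10 MSXH and 10 HFD mice was measured on 1 array per mouse. The deposited values, 1 per probe set, were taken as log2 levels. How they were made, and the base of the log, is not given in the sources used here. Total RNA was labelled with biotin and hybridised to Affymetrix 3' arrays, per the labels' protocols. Groups came from the sample titles.

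Of 45101 probe sets, 34945 non-control ones had exactly 1 symbol, 932 had several and were left out. For each of 18193 genes the probe set of highest mean was used, with no filter on level and no change of the values. The fit used limma 3.58.1 in R 4.3.3 (two-sided, eBayes with a trend, 0.704 prior and 18 residual degrees of freedom), adjusted by Benjamini-Hochberg over all genes, with a threshold of 0.05. Standardized differences have noncentral t intervals at 95%. Correlations used Python 3.11.15, numpy 2.4.6 and scipy 1.17.1, with two-sided permutation tests of 100000 draws, and the figures matplotlib 3.10.9. The fit was checked on simulated data. Promoter sequences are RefSeq's (GRCm38.p6).

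The members and lists were chosen with earlier results of these data known. Named with full values are the 3 members of smallest p in each class, those whose highest 2 arrays are MSXH 4 and 6, and the 3 of largest SD. Of each other list the gene of smallest p is named, with Myh1 and Acta1 for muscle. Acta2, Col18a1, other genes given as examples and the correlated pairs were named after their values were seen. The alternatives were quantile normalization, array centring, leaving out MSXH 4 and 6 or each array, genes above the median gene, the mean of probe sets, all probe sets, a replicate block, other eBayes settings and an exact rank sum test.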

Additional observations from a re-analysis of the deposited data

Results flagged for a closer look

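Among the 72 combinations of a member and a group of 10 mice, 6 had 1 mouse set apart from the rest of its group by Dixon's test, and chance alone sets about 1 in 20 groups apart. The highest MSXH mouse of Des was MSXH 4 at 7.1344, with the next at 7.1221, and that of Lox was MSXH 4 at 6.881009, with the next at 6.880823. MSXH 4 also carried the highest level of skeletal muscle transcripts, whose part in the Lox value was not tested. Tagln, which encodes the actin-binding protein transgelin, was set apart by MSXH 7 at 7.07745, with the next mouse at 7.07601. Col14a1 was lowest in MSXH 3 at 8.12376, with the next mouse at 8.12460. In HFD, Timp3 was lowest in HFD 5 at 8.13162, with the next at 8.13216, and Pdgfrb was highest in HFD 3 at 6.877161, with the next at 6.876764.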

How the results depend on the processing

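The count of members past an adjusted p of 0.05 was 0 under every alternative, with the smallest adjusted p of a member at 0.229 after array centring. The count at an unadjusted p under 0.05, 2 as reported, was 1 after quantile normalization, without MSXH 4 and 6 (also with either scaling), among the 25 members above the median gene and by the exact rank sum test, 3 after array centring, and 6 of 82 probe sets. These were not the same genes: quantile normalization left Col6a1, or Col1a1 without MSXH 4 and 6, centring gave Reln, Col14a1 and Col6a1, and the mean of probe sets gave Timp1 and Col18a1. Leaving out 1 array at a time gave 0 to 4: 0 without MSXH 1, 3 or 7 or HFD 2, 5 or 7, 1 without MSXH 4, 5 or 8 or HFD 1, 3 or 4, 3 without HFD 10 and 4 without HFD 9. Timp1 stayed under 0.05 in 14 of 20 such fits and Reln in 6 of 20. The 20 members higher in MSXH became 9 after quantile normalization, 6 after array centring, 8 without MSXH 4 and 6, 8 with centring added (21 with quantile normalization added), 13 of 25 above the median gene and 42 of 82 probe sets. Leaving out 1 array gave 13 to 23, with 13 without MSXH 4. The number of member pairs at an r of 0.7 or more, with alternatives chosen after seeing the data, was 177 after centring, 168 after quantile normalization, 73 by Spearman's rho and 69 to 110 on leaving out 1 array, with 69 without MSXH 4. The causes were not tested. With the replicate numbers as a block, 2 members had an unadjusted p under 0.05, Timp1 (0.0489) and Fn1 (0.0492), while Reln did not (0.125), 20 were higher and the median standardized difference was 0.0329. The sample titles state no pairing by these numbers, and same-numbered mice correlated between -0.27 and 0.167. Such correlations cannot settle whether the numbers carry a pairing. Levels under the array median, as in Timp1, and the compressed scale limit what can be read from single members.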
